A study of Homo sapiens with 12 samples.

Results

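The genes described here were 57 human genes that repair DNA double-strand breaks and interstrand crosslinks or signal such damage. They were taken by gene name from both raw count tables and joined by Ensembl identifier without version, and all 57 were found among the 30984 genes listed for KYSE30 and the 78691 listed for U138MG. By role, 26 belonged to homologous recombination, 13 to the Fanconi pathway, 10 to checkpoint signalling and 8 to end joining. All 57 passed the filter on low counts in both lines, with between 29 and 14133 counts per library in KYSE30 and between 69 and 15139 in U138MG.

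KYSE30 is an esophageal squamous cell carcinoma line and U138MG a glioblastoma line, both WT by their labels and each a single tumour-derived line. Cultures received 100 nM PTDSS1i, a small-molecule inhibitor of the phosphatidylserine synthase PTDSS1, or the vehicle DMSO, for 48 h in both arms. Poly-A RNA was sequenced in bulk from 3 replicate libraries per group, 12 in all, and the comparison asked how transcripts changed once the enzyme was blocked. The labels do not say whether the replicates of a group were separate cultures, so the p-values measure the spread between these libraries, which may be partly technical.

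The 12 libraries held between 18800932 and 26514658 counts. The KYSE30 libraries were labelled batch1 and the U138MG libraries batch2, and each line has its own count table, so batch, table and line cannot be told apart. The libraries labelled U138MG held most of the squamous and epithelial markers examined at high levels, while glial and mesenchymal ones ranged from high to absent. Of 6 squamous and epithelial markers, 5 were above 10 normalized CPM (the count relative to the scaled library size) in their DMSO libraries, with mean levels of 1470 CPM for KRT5, 4861 CPM for KRT15 and 463 CPM for CDH1. Of 9 glial and mesenchymal markers, 5 were above 10 CPM there, SPARC at 713 CPM, FN1 at 75.8 CPM, COL1A1 at 54.5 CPM, SOX2 at 38.9 CPM and CDH2 at 11.9 CPM. The other 4 were GFAP at 2.36 CPM, NES at 0.556 CPM, vimentin (VIM), a defining mesenchymal gene, at 0.206 CPM, and OLIG2 with 0 counts in each of the 6 libraries. They are therefore called the U138MG-labelled libraries below. In KYSE30, 4 of the 6 epithelial markers were above 10 CPM in DMSO, with CDH1 at 514 CPM and KRT5 at 0.0608 CPM, and 3 of the 8 glial and mesenchymal markers in its table. Those 3 were SOX2 at 99.4 CPM, FN1 at 98.3 CPM and COL1A1 at 10.7 CPM. SOX2 and FN1 were thus higher in KYSE30 than in the U138MG-labelled DMSO libraries.

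Homologous recombination copies the lost sequence from a sister chromatid. Nucleases first cut back the broken end, BRCA1 and BRCA2 then help to prepare the single strand for pairing with the sister, and the joined molecules are finally dissolved or cleaved. The Fanconi core complex places ubiquitin on the FANCD2 and FANCI pair at a stalled crosslink, which recruits nucleases. Classical end joining instead ligates the ends directly after the Ku proteins bind them, in any phase of the cell cycle, whereas recombination is used mostly in S and G2 phase. Many recombination and Fanconi genes are known to be transcribed mainly in cycling cells, through E2F sites or through the CHR element bound by the DREAM complex.

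The start regions of the genes were therefore searched for those short letters, and a few are printed so that the sites can be seen beside the values. RefSeq start regions on GRCh38.p14, from 250 bases before to 50 bases after each listed start, were given for 50 of the 57 genes, and not for DNA2, FANCI, NBN, PRKDC, RAD54B, RMI2 and XRCC5. The E2F search used TTTCCCGC, TTTCGCGC, TTTGCCGC and TTTGGCGC, the CHR search used TTTGAA, and another search used CCAAT, each on both strands, and matches of different motifs overlapped in 0 cases at these genes. An E2F match lay at a start of 9 of the 50 genes (18.0%), against 3.99% of 27305 genes in the table and 14 of 21 S phase genes (66.7%). A CHR match lay at a start of 7 of the 50 (14.0%), against 18.2% of all genes and 11 of 17 G2/M genes (64.7%). CCAAT was present for 25 of the 50 (50%) and for 39.7% of all genes. Each window below is 60 bases long, lies upstream of the start and reads 5′ to 3′ along the gene, with the E2F match of the first 3 and the CHR match of the last 4 in capitals.
FANCA (chr16:89816786-89816845, minus strand): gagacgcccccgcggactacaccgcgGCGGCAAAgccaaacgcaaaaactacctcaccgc
FANCC (chr9:95317722-95317781, minus strand): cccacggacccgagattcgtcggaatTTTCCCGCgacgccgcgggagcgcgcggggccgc
RMI1 (chr9:83980745-83980804, plus strand): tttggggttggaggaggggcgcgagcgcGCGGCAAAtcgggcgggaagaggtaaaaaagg
BRIP1 (chr17:61863719-61863778, minus strand): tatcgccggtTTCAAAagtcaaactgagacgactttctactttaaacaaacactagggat
H2AX (chr11:119095597-119095656, minus strand): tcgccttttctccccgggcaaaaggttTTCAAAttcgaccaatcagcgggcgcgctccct
POLQ (chr3:121546179-121546238, minus strand): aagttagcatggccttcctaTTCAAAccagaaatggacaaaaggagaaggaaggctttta
UBE2T (chr1:202342057-202342116, minus strand): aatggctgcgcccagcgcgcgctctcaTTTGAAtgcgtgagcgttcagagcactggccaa
E2F matches that touch or follow the start, at EXO1, GEN1, FANCD2, TOPBP1, XRCC2 and XRCC6, are not printed, nor is a second upstream match at FANCC. The remaining CHR matches lay at ATM, FANCC and MDC1, with a second one at POLQ after the start. All these genes with an E2F or CHR match fell in KYSE30, as did 53 of the 57 genes. In the U138MG-labelled libraries most of them fell, FANCA among them, whereas XRCC6 and UBE2T were not called and ATM rose. E2F letters were found at 6 of the 28 genes that fell beyond a log2 fold change of -1 in KYSE30 and at 3 of the other 22. A match is a description of these letters, and its absence from a window says nothing about the factor.

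Blocking PTDSS1 was followed by lower transcript levels for nearly the whole set in KYSE30. Of the 57 genes, 53 fell, 2 rose (LIG4 and MUS81) and 2 were not called (RAD50 and NHEJ1), at a threshold of 0.05 on the p of edgeR's quasi-likelihood test, adjusted after Benjamini and Hochberg over all 16389 genes tested. Over all tested genes, 32% were lower and 30.1% higher. The 33 genes that also passed a log2 fold change of -1 compared with 7.04% of all genes, and none of the 57 passed +1, a level reached by 6.4% of all genes. The median log2 fold change of the 57 was -1.14, against -0.03 over all tested genes. The treated and control libraries did not overlap for 54 of the 57 genes, and for 66.3% of all genes. In bulk RNA, fewer cells that express a gene and less RNA per cell cannot be told apart.

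In the U138MG-labelled libraries fewer of the 57 genes fell than in KYSE30. Here 36 genes fell, 8 rose and 13 were not called, beside 33.6% lower and 33.9% higher among 17666 tested genes. The 8 that rose were NBN, RBBP8, MUS81, ATM, ATR, TP53BP1, RNF168 and XRCC4. A log2 fold change of -1 was passed by 8 genes, BRCA2, RAD51AP1, GEN1, FANCD2, BRIP1, H2AX, POLQ and PARP1, beside 11.6% of all genes, and all 8 also passed it in KYSE30. None passed +1, which 8.19% of all genes did. The median was -0.36, against -0.03 over all tested genes, and the groups did not overlap for 42 of the 57 genes and for 71.4% of all genes. With scaling by library size alone the median of all genes moved by -0.15, and 44 of the 57 then fell and 3 rose (RBBP8, RNF168 and MUS81). The 8 additional genes called lower under it were FAN1, FANCF, LIG4, SLX4, TOP3A, XRCC3, XRCC5 and XRCC6. Over all tested genes that scaling turned 5930 lower and 5989 higher calls into 7694 and 4533, and in KYSE30, with a shift of -0.11, 5238 and 4927 into 6460 and 3932.

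**Figure D1:**
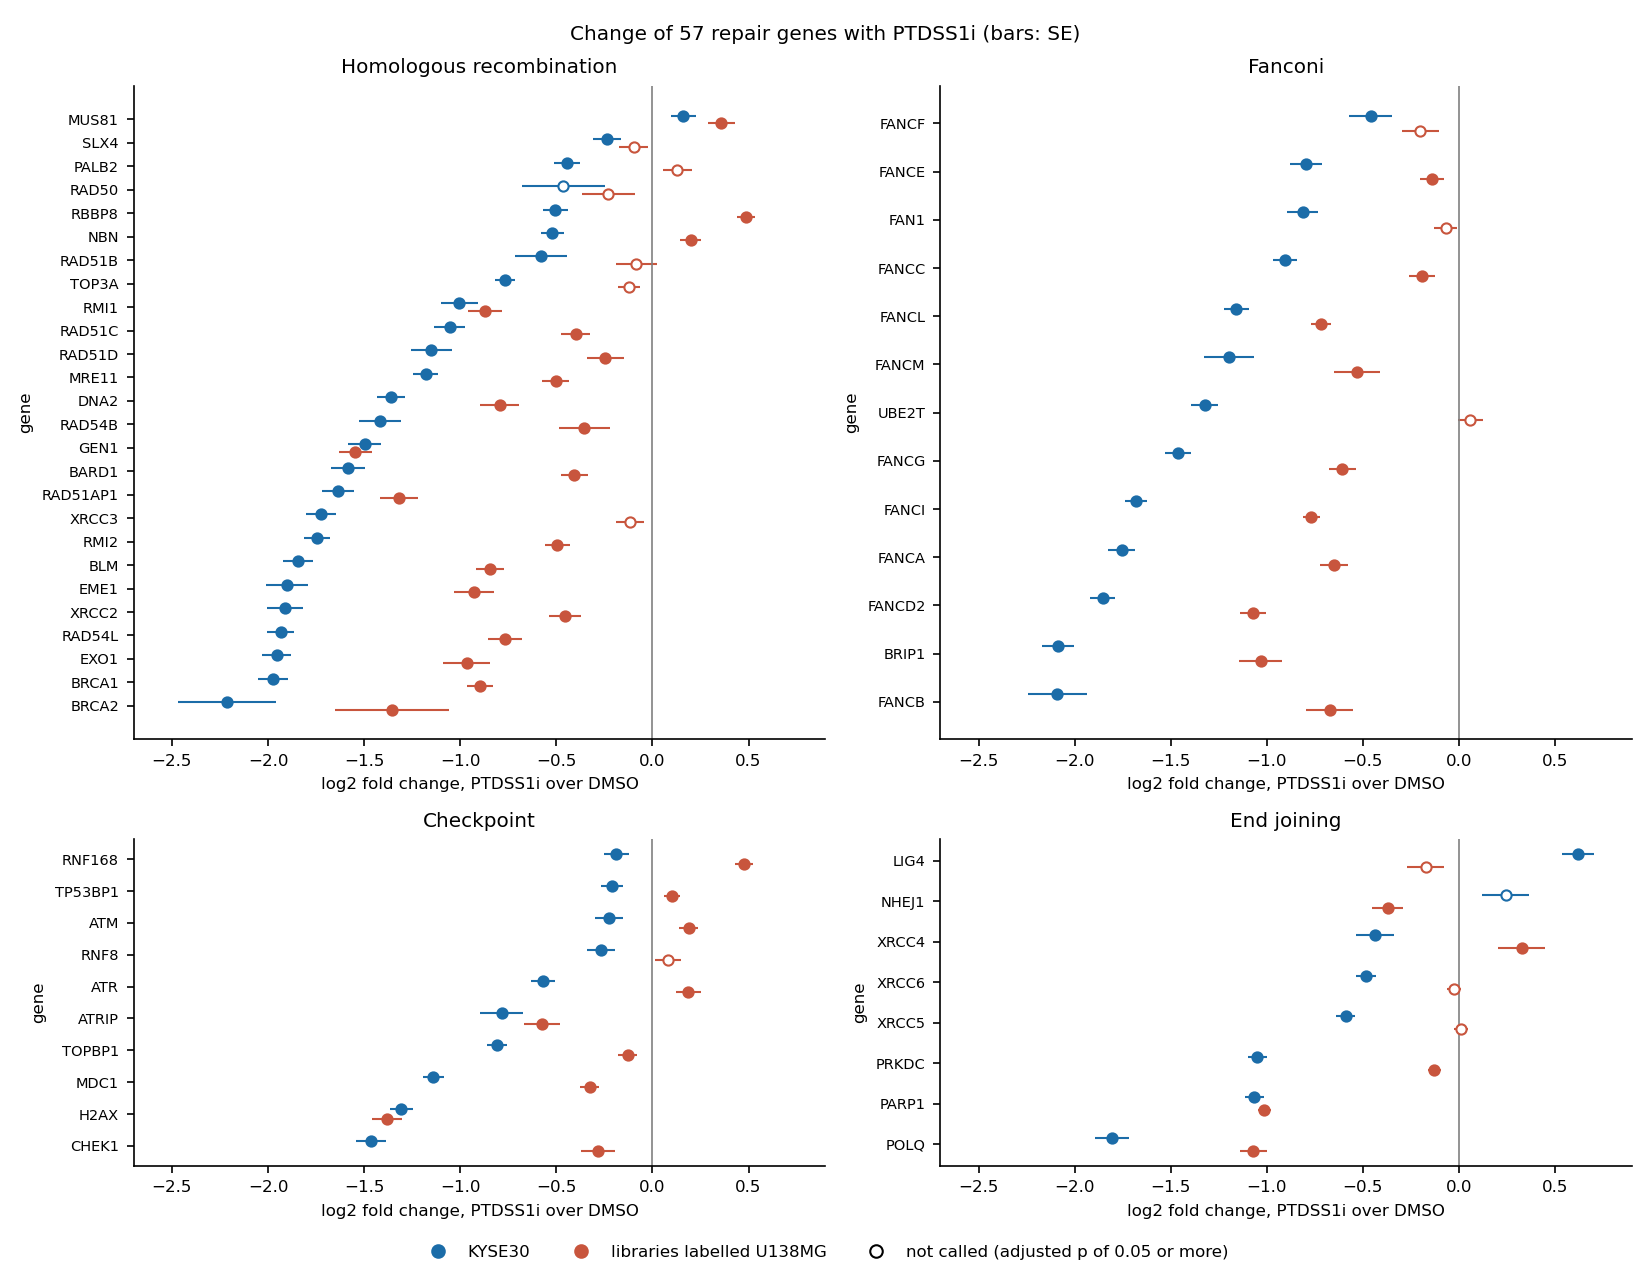
Log2 fold change (PTDSS1i over DMSO, horizontal axis) of each of the 57 genes (vertical axis), one panel per role, with bars for the SE from 3 libraries against 3. KYSE30 points (blue) lie left of 0 for all but 3 genes (MUS81, NHEJ1 and LIG4), whereas the U138MG-labelled points (red) lie on both sides. Open points were not called.

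Among the 26 genes of homologous recombination, 24 fell and 1 rose in KYSE30 with a median log2 fold change of -1.39, and 17 fell and 3 rose in the U138MG-labelled libraries with a median of -0.43. Over all tested genes, 32% were lower and 30.1% higher in KYSE30, and 33.6% and 33.9% in the U138MG-labelled libraries. EXO1, a nuclease that digests the 5′ strand at a break (chr1:241847967-241895148 on hg38), was at 40.3, 36.9 and 39.3 CPM in the 3 KYSE30 DMSO libraries and at 10.2, 9.79 and 10.1 CPM in the 3 treated ones. With the U138MG label it went from 29.2, 27.5 and 34.1 CPM to 12.8, 15.7 and 17.9 CPM. The groups were apart in both lines, with a log2 fold change of -1.95 ± 0.08 (SE, n = 3 against 3; edgeR adjusted p = 2.48e-15) in KYSE30 and -0.97 ± 0.12 (4.08e-05) in the other line. The resection helicase and nuclease DNA2 fell, at log2 fold changes of -1.36 and -0.79, and MRE11, the nuclease of the MRN complex, of -1.18 and -0.50.

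RBBP8 and NBN of the resection group fell in KYSE30 and were called higher in the U138MG-labelled libraries. RBBP8, whose product CtIP starts resection with MRN, stood at 47.2, 41.6 and 46.7 CPM in KYSE30 DMSO and at 31.3, 32.7 and 31.5 CPM with PTDSS1i. In the other line it stood at 66.2, 63.0 and 69.8 CPM in DMSO and at 94.6, 94.7 and 89.5 CPM with PTDSS1i. Its groups were apart in both lines but in opposite order, with log2 fold changes of -0.51 ± 0.07 and 0.49 ± 0.05 (edgeR adjusted p = 6.88e-07 and 1.61e-10). NBN, the MRN subunit that brings ATM to breaks, was at 58.0, 52.7 and 56.6 CPM against 37.8, 38.4 and 40.4 CPM in KYSE30. Its U138MG-labelled values were 43.7, 43.0 and 47.2 CPM against 49.9, 54.0 and 49.9 CPM, so it fell by 0.52 in the first line and rose by 0.20 in the second, a rise that was lost when libraries were scaled by size or by upper quartile. RAD50, the coiled-coil ATPase of MRN, was not called in either line.

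RAD50 also illustrates a limit of the level itself. Its KYSE30 libraries held 4.69, 6.61 and 5.49 CPM in DMSO and 3.59, 5.76 and 2.97 CPM with PTDSS1i, and the second treated library lay inside the DMSO range. The U138MG-labelled libraries held 78.1, 76.2 and 72.9 CPM and 75.9, 64.0 and 54.1 CPM, more than the KYSE30 values in every library. In GENCODE 29, the gene AC116366.3 shares 79.7% of RAD50's exonic bases. It is listed in the U138MG table, with 498 counts in all beside 9467 for RAD50, whereas RAD50 had 618 in KYSE30, where that gene has no row, so the level of RAD50 cannot be compared between the lines. Whether the replicate numbers pair the KYSE30 libraries is not known. With the replicate number as a block, RAD50 fell there, at a log2 fold change of -0.48 (edgeR adjusted p = 0.00864). It also passed without the second treated KYSE30 library, at -0.77.

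The mediators BRCA1, BARD1, BRCA2 and PALB2 fell together in KYSE30. BRCA1 (chr17:43044295-43170245), the ubiquitin ligase that directs breaks to recombination, went from 62.2, 65.5 and 66.4 CPM to 14.3, 18.6 and 16.6 CPM in KYSE30. Across the U138MG-labelled libraries it went from 42.9, 45.1 and 49.2 CPM to 22.0, 26.6 and 25.2 CPM. No treated library reached a DMSO library in either line, and the log2 fold changes were -1.97 ± 0.08 and -0.90 ± 0.07 (edgeR adjusted p = 3.07e-15 and 1.66e-11). BARD1, its obligate partner, fell, at -1.58 and -0.41 on the log2 scale. PALB2, which bridges BRCA1 and BRCA2, fell by 0.45 in KYSE30, and its value of 0.13 in the U138MG-labelled libraries was not called and turned negative with scaling by library size.

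BRCA2 (chr13:32315474-32400266), a mediator of homologous recombination, had the lowest log2 fold change of the set in KYSE30. Its KYSE30 values were 9.73, 14.3 and 15.7 CPM in DMSO and 2.14, 3.98 and 2.56 CPM with PTDSS1i. Its U138MG-labelled values were 10.9, 11.1 and 13.4 CPM and 6.49, 4.70 and 2.76 CPM. The groups did not overlap, but the libraries were widely spread for counts of this size, so that the log2 fold changes of -2.21 ± 0.26 and -1.36 ± 0.30 carried the largest errors of the 57 (edgeR adjusted p = 0.000123 and 0.00901). Per kilobase of exon, BRCA2 was also among the lowest of the 57 in DMSO, at 1.08 CPM per kilobase in KYSE30 and 0.963 in the U138MG-labelled libraries, where the medians over the 57 genes were 6.37 and 4.98.

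Of RAD51AP1, RAD51B, RAD51C, RAD51D, XRCC2, XRCC3, RAD54L and RAD54B, which act in strand pairing, all 8 fell in KYSE30 and 6 fell in the U138MG-labelled libraries. RAD51AP1, which promotes strand pairing, was at 30.0, 26.6 and 28.2 CPM in KYSE30 DMSO and at 9.37, 8.87 and 9.00 CPM with PTDSS1i. The U138MG-labelled libraries gave 19.8, 18.1 and 19.5 CPM and 7.50, 8.75 and 6.79 CPM. It fell in both lines without overlap, with 32.1% of the DMSO level left in KYSE30 and 40.1% in the other line (edgeR adjusted p = 2.19e-13 and 1.58e-12). RAD54L, a DNA translocase of homologous recombination, fell, at -1.94 and -0.77, and its paralog RAD54B at -1.42 and -0.36. RAD54B shares 59.1% of its exonic bases with FSBP (log2 fold changes of -1.35, called lower, in KYSE30 and 0.28, not called, in the other line), so its value is uncertain, and its U138MG-labelled fall, between -0.50 and -0.17 over the alternatives, was lost without the third DMSO library or without the second or the third treated library.

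XRCC2, XRCC3, RAD51B, RAD51C and RAD51D behaved unequally across the lines. XRCC2 stood at 39.7, 39.5 and 42.0 CPM and 8.53, 11.8 and 11.8 CPM in KYSE30 DMSO and PTDSS1i libraries. Under the U138MG label the values were 18.6, 19.0 and 22.2 CPM and 14.6, 14.3 and 14.7 CPM. Both pairs of groups were apart, at log2 fold changes of -1.91 ± 0.09 and -0.45 ± 0.08. XRCC3, which works in a complex with RAD51C, had 37.7, 36.0 and 36.4 CPM against 11.1, 12.1 and 10.2 CPM in KYSE30. In the U138MG-labelled libraries it had 47.4, 39.5 and 49.3 CPM against 42.4, 39.6 and 43.4 CPM, and these groups overlapped (-0.12 ± 0.07, edgeR adjusted p = 0.165). XRCC3 shares 76.7% of its exonic bases with KLC1 on the other strand, and KLC1 rose in both lines, by 0.45 in KYSE30 and 0.56 in the U138MG-labelled libraries, with 3434 and 14723 counts in all beside 3064 and 5900 for XRCC3. The use of strand in counting is not given in the sources used here, so the part of shared reads in the XRCC3 values was not tested. RAD51C fell, at -1.06 and -0.40, RAD51D at -1.15 and -0.24, and RAD51B fell by 0.58 in KYSE30, with a value of -0.08 that was not called in the U138MG-labelled libraries. The smaller fall of RAD51D ranged between -0.39 and -0.18 and was lost in 6 alternatives, 4 of which left out 1 library (the first or second DMSO or the first or the third treated).

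The enzymes that dissolve or cut joined DNA molecules included MUS81, the single gene that rose in both lines. GEN1, a resolvase of Holliday junctions, was at 38.4, 40.1 and 41.5 CPM and 12.2, 16.4 and 14.1 CPM in KYSE30. The U138MG-labelled libraries held 27.8, 24.3 and 26.2 CPM and 8.47, 9.35 and 8.98 CPM. GEN1 had the lowest log2 fold change of the 57 in the U138MG-labelled libraries, -1.55 ± 0.09, beside -1.50 ± 0.09 in KYSE30 (edgeR adjusted p = 1.75e-15 and 2.23e-12). RMI2, which stabilises the BLM dissolution complex, went from 59.3, 66.5 and 64.9 CPM to 18.2, 19.4 and 19.2 CPM in KYSE30. Its U138MG-labelled values went from 35.3, 35.2 and 35.9 CPM to 24.5, 23.5 and 27.4 CPM, without overlap in either line. The helicase BLM fell, at -1.84 and -0.85 and RMI1 at -1.01 and -0.87. TOP3A, the topoisomerase of the complex, fell by 0.77 in KYSE30 and had a value of -0.12, not called, in the U138MG-labelled libraries.

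MUS81, a structure-specific nuclease, and EME1, its regulatory partner, moved in opposite directions. EME1 fell, at -1.90 in KYSE30 and -0.93 in the U138MG-labelled libraries. EME1 shares 16.4% of its exonic bases with LRRC59 on the opposite strand. LRRC59 had 24696 counts in KYSE30 beside 1386 for EME1, and 17250 beside 1505 in the U138MG-labelled libraries. MUS81 was at 38.4, 40.7 and 35.1 CPM in KYSE30 DMSO and at 43.9, 42.4 and 41.2 CPM with PTDSS1i. With the U138MG label it was at 21.1, 22.6 and 20.3 CPM and 26.4, 27.9 and 27.8 CPM. The treated values lay above the DMSO values in both lines, but the KYSE30 rise of 0.16 ± 0.07 (edgeR adjusted p = 0.0385) was lost in 7 of 13 alternative settings, 3 of them leaving out 1 library (the third DMSO or the first or second treated library), with values between 0.05 and 0.20. The rise of 0.36 ± 0.07 in the U138MG-labelled libraries passed in each of 13 alternatives. MUS81 shares 13.9% of its exonic bases with CFL1 on the opposite strand, which had 122804 counts in KYSE30 beside 5193 for MUS81. The nuclease scaffold SLX4 fell by 0.24 in KYSE30, and its value of -0.10 in the other line was not called.

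**Figure D2:**
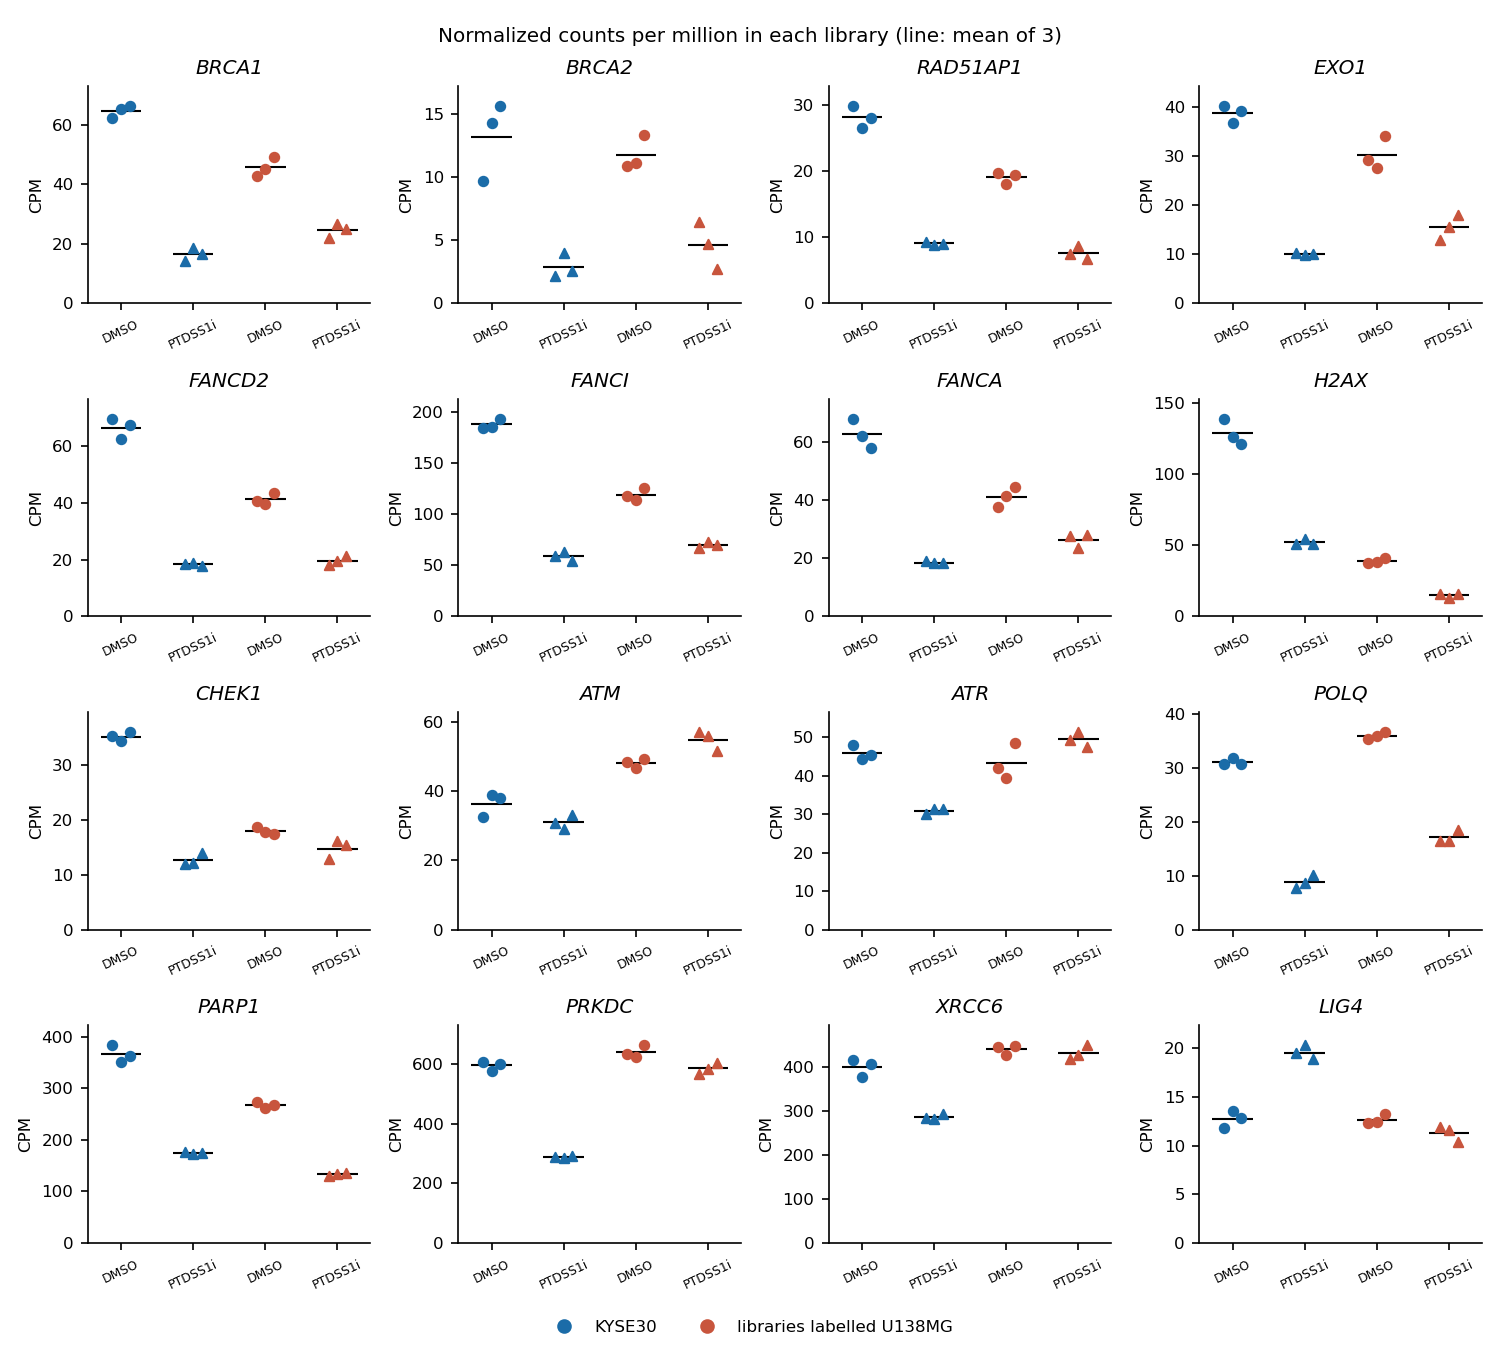
Normalized CPM (vertical axis, from 0) of 16 of the 57 genes in each of the 12 libraries, circles for DMSO and triangles for PTDSS1i, with a line at the mean of 3 libraries. In KYSE30 (blue) the treated libraries are lower for all but LIG4, with overlap for ATM, while in the U138MG-labelled libraries (red) the ATM and ATR means are higher with PTDSS1i.

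All 13 Fanconi genes fell in KYSE30 (median log2 fold change -1.32), and 10 fell and 3 were not called in the U138MG-labelled libraries (median -0.61), with none higher in either line. The shares of all tested genes called lower were 32% and 33.6%. FANCD2 (chr3:10026414-10101930), which receives ubiquitin when a crosslink is met, was at 69.5, 62.3 and 67.3 CPM and 18.6, 18.8 and 17.8 CPM in KYSE30. In the other line it was at 40.5, 39.7 and 43.3 CPM and 18.2, 19.4 and 21.2 CPM. Both treated groups lay below their DMSO groups, at log2 fold changes of -1.85 ± 0.07 and -1.07 ± 0.07 (edgeR adjusted p = 6.32e-16 and 3.79e-14). FANCI, its partner, went from 184, 186 and 193 CPM to 58.8, 62.6 and 54.4 CPM in KYSE30. Its U138MG-labelled values went from 118, 114 and 126 CPM to 66.7, 73.0 and 69.7 CPM. BRIP1, the helicase also called FANCJ, fell, at -2.09 and -1.03. The nuclease FAN1 fell by 0.81 in KYSE30, and its value of -0.07 in the U138MG-labelled libraries was not called.

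The core complex builds the ubiquitin ligase, and its members fell by different amounts. FANCA (chr16:89737549-89816657), whose start region is printed above, stood at 67.8, 61.8 and 57.8 CPM in KYSE30 DMSO and 18.9, 18.4 and 18.2 CPM with PTDSS1i. Across the U138MG-labelled libraries the values were 37.6, 41.5 and 44.4 CPM and 27.5, 23.4 and 27.9 CPM. The groups were apart in both lines, with log2 fold changes of -1.75 ± 0.07 and -0.65 ± 0.07 (edgeR adjusted p = 4.03e-15 and 4.06e-08). FANCA shares 23.6% of its exonic bases with ZNF276 on the opposite strand, whose own values were 0.06 in KYSE30, not called, and -0.18 in the U138MG-labelled libraries, called lower (edgeR adjusted p = 0.0375). FANCB, a core subunit encoded on the X chromosome, was at 7.38, 6.96 and 7.95 CPM against 1.86, 1.48 and 1.86 CPM in KYSE30. Under the U138MG label it was at 9.94, 10.0 and 9.81 CPM against 5.31, 6.26 and 7.03 CPM, so 23.3% of the DMSO level was left in the first line and 62.5% in the second. FANCG fell, at -1.46 and -0.61, FANCL, the ligase subunit, at -1.16 and -0.72, and the translocase FANCM at -1.20 and -0.53.

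FANCF, an adaptor of the complex, had 9.87, 8.67 and 10.2 CPM in KYSE30 DMSO and 7.36, 7.29 and 6.32 CPM with PTDSS1i. Its U138MG-labelled values of 13.8, 12.3 and 14.1 CPM and 11.5, 12.6 and 10.9 CPM overlapped, and the value of -0.20 was not called. FANCE, which contacts FANCD2, had 22.1, 20.6 and 19.8 CPM and 12.6, 11.9 and 11.5 CPM in KYSE30, a log2 fold change of -0.80. In the U138MG-labelled libraries FANCE had 32.8, 36.6 and 34.5 CPM and 32.8, 29.7 and 31.8 CPM. These overlapped, and the log2 fold change of -0.14 ± 0.06 (edgeR adjusted p = 0.0494) was lost in 9 of 13 alternatives, among them those without the second or the third DMSO library and without any 1 of the 3 treated libraries, with values between -0.29 and -0.09. FANCC fell, at -0.90 and -0.19, the latter not called without the first treated U138MG-labelled library (lowest and highest over the alternatives -0.34 and -0.15).

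UBE2T, the ubiquitin-conjugating enzyme of the pathway, was called lower in KYSE30 and not in the U138MG-labelled libraries. It was at 46.3, 41.8 and 46.0 CPM in KYSE30 DMSO and at 16.8, 19.1 and 17.7 CPM with PTDSS1i, a log2 fold change of -1.32 ± 0.07 (edgeR adjusted p = 6.30e-13). With the U138MG label it was at 37.8, 39.1 and 43.6 CPM and 38.5, 41.7 and 45.4 CPM. Those groups overlapped, and the value of 0.06 ± 0.06 was not called (edgeR adjusted p = 0.431) and turned negative with scaling by library size or by upper quartile.

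Among the 10 checkpoint genes, all 10 fell in KYSE30 (median -0.68), whereas 5 fell and 4 rose in the U138MG-labelled libraries (median -0.02). Of all tested genes, 32% were lower in KYSE30, and 33.6% were lower and 33.9% higher in the U138MG-labelled libraries. H2AX (chr11:119093854-119095467), the histone variant phosphorylated around breaks, was at 139, 127 and 121 CPM in KYSE30 DMSO and 51.1, 54.4 and 50.9 CPM with PTDSS1i. In the other line it was at 37.6, 38.7 and 41.1 CPM and 15.8, 13.0 and 16.2 CPM. It fell in both lines without overlap, at -1.31 ± 0.06 and -1.38 ± 0.08 (edgeR adjusted p = 3.63e-14 and 1.76e-15). MDC1, the scaffold that reads phosphorylated H2AX, fell, at -1.14 and -0.33.

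CHEK1, the effector kinase that delays mitosis, had the lowest checkpoint value in KYSE30. Its KYSE30 values were 35.2, 34.3 and 36.0 CPM and 12.0, 12.1 and 14.0 CPM. Across the U138MG-labelled libraries they were 18.7, 17.8 and 17.4 CPM and 12.8, 16.1 and 15.3 CPM. The log2 fold changes were -1.46 ± 0.08 and -0.28 ± 0.09 (edgeR adjusted p = 4.72e-13 and 0.00637), and without the first treated U138MG-labelled library the latter was -0.18 and not called. ATRIP, which carries ATR to single-stranded DNA, fell, at -0.78 and -0.57, and TOPBP1, which activates ATR, at -0.81 and -0.13. The latter fall of TOPBP1 was lost in 6 alternatives, 4 of which left out 1 library (the first or the third DMSO or the second or the third treated), with values between -0.27 and -0.08. CHEK2, not among the 57, fell, at -0.84 and -0.43.

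The apical kinases ATM and ATR were called in opposite directions in the lines. ATM (chr11:108222484-108369102), the kinase for double-strand breaks, was at 32.6, 38.9 and 38.0 CPM and 31.0, 29.2 and 33.3 CPM in KYSE30, where the groups overlapped. Under the U138MG label it was at 48.5, 46.7 and 49.5 CPM and 57.2, 56.1 and 51.6 CPM, where they did not. The log2 fold changes were -0.23 ± 0.07 and 0.19 ± 0.05 (edgeR adjusted p = 0.0113 and 0.00213). The KYSE30 fall was -0.20 without the third DMSO library and -0.18 without the second treated library, and not called in either case. ATR, the kinase for stalled forks, was at 47.8, 44.4 and 45.3 CPM and 30.0, 31.2 and 31.3 CPM in KYSE30. The U138MG-labelled libraries gave 42.1, 39.5 and 48.5 CPM and 49.3, 51.3 and 47.6 CPM, and here 1 DMSO library lay among the treated ones. ATR fell by 0.57 ± 0.06 in KYSE30 and rose by 0.19 ± 0.06 in the U138MG-labelled libraries, a rise lost in 5 alternatives, including those without the first or second DMSO library or the second treated library, with values between 0.04 and 0.28. Both rises were lost with scaling by library size or by upper quartile.

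RNF168, TP53BP1 and RNF8, which act in the ubiquitin signalling that follows H2AX phosphorylation, were called lower in KYSE30 with small log2 fold changes. RNF168, the ligase that marks H2A, was at 45.3, 44.7 and 50.4 CPM and 38.8, 42.0 and 42.6 CPM in KYSE30, a log2 fold change of -0.19 ± 0.06. In the U138MG-labelled libraries it was at 59.1, 63.6 and 65.1 CPM and 90.1, 88.6 and 83.3 CPM, a rise of 0.48 ± 0.05 without overlap (edgeR adjusted p = 4.14e-10). The KYSE30 fall was lost without the third DMSO or the first treated library and with DESeq2, with values between -0.29 and -0.13 over the alternatives. TP53BP1, which shields ends from resection and shares 28.7% of its exonic bases with TUBGCP4, was at 62.6, 67.6 and 67.3 CPM and 57.2, 54.8 and 58.8 CPM in KYSE30. Its U138MG-labelled values were 94.1, 98.8 and 98.0 CPM and 100.1, 107 and 106 CPM. TUBGCP4 itself was at a log2 fold change of -0.65 in KYSE30, called lower, and at 0.01, not called, in the U138MG-labelled libraries. The values of -0.21 ± 0.06 and 0.10 ± 0.04 were small, and the rise was lost in 7 alternatives, 2 of them leaving out 1 library (the first DMSO or the second treated library), with values between -0.05 and 0.14, and turned negative with scaling by library size or by upper quartile. RNF8, which acts before RNF168, fell by 0.27 in KYSE30, and its value of 0.08 in the U138MG-labelled libraries was not called and also turned negative under those scalings.

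Both genes of alternative end joining fell in both lines, and most of the classical genes fell in KYSE30. Of the 8 end joining genes, 6 fell and 1 rose in KYSE30 (median -0.54), and 4 fell and 1 rose in the U138MG-labelled libraries (median -0.15). The shares of all tested genes were 32% lower and 30.1% higher in KYSE30, and 33.6% and 33.9% in the other line. POLQ, the polymerase of the alternative pathway whose CHR match is printed above, was at 30.7, 31.7 and 30.6 CPM and 7.74, 8.61 and 10.2 CPM in KYSE30. With the U138MG label it was at 35.3, 35.9 and 36.6 CPM and 16.4, 16.4 and 18.5 CPM. PARP1 (chr1:226360691-226408079), which senses strand breaks, was at 383, 349.9 and 363 CPM and 177, 173 and 174 CPM in KYSE30. The U138MG-labelled libraries held 273, 262 and 267 CPM and 129, 133 and 136 CPM of PARP1. Neither gene's groups overlapped in either line. POLQ fell, at -1.81 ± 0.09 and -1.07 ± 0.07, and PARP1 at -1.06 ± 0.05 and -1.01 ± 0.04 (edgeR adjusted p for PARP1 = 1.03e-13 and 3.37e-20).

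The Ku subunits, which bind broken ends, were among the 4 most abundant transcripts of the set per kilobase of exon in DMSO libraries of both lines. XRCC6, which encodes Ku70, had a mean of 122 CPM per kilobase in KYSE30 DMSO and 134 in U138MG-labelled DMSO, the first of the 57 in both. Its CPM values were 416, 377 and 406 in KYSE30 DMSO and 285, 281 and 292 with PTDSS1i. In the other line they were 446, 428 and 447 and 419.6, 428 and 450.1. XRCC6 fell by 0.48 ± 0.05 in KYSE30, while the U138MG-labelled groups overlapped and the value of -0.03 ± 0.03 was not called. XRCC5, which encodes Ku80, was at 273, 265 and 279 CPM and 184, 174 and 185 CPM in KYSE30. Across the U138MG-labelled libraries it was at 328, 300.1 and 325 CPM and 314, 314 and 331 CPM. It likewise fell by 0.59 ± 0.05 in KYSE30 and was not called in the U138MG-labelled libraries (0.01 ± 0.04, edgeR adjusted p = 0.855).

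PRKDC, the catalytic subunit of DNA-PK that Ku recruits, was reduced more than Ku in KYSE30. It was at 608, 577 and 601 CPM in DMSO and 287, 285 and 291 CPM with PTDSS1i, a log2 fold change of -1.05 ± 0.05 (edgeR adjusted p = 8.19e-14). Under the U138MG label it was at 634, 623 and 663 CPM and 568, 584 and 604 CPM. That fall was -0.13 ± 0.03, without overlap, and without the first treated library it was -0.10 and not called. The order of PRKDC, XRCC5 and XRCC6 within KYSE30 was not tested.

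Of the ligation factors, LIG4 rose, XRCC4 fell and NHEJ1 was not called in KYSE30. LIG4, the ligase that seals the ends, was at 11.8, 13.6 and 12.8 CPM in KYSE30 DMSO and at 19.5, 20.3 and 18.9 CPM with PTDSS1i. In the U138MG-labelled libraries it was at 12.3, 12.5 and 13.2 CPM and 11.9, 11.6 and 10.3 CPM. LIG4 rose by 0.62 ± 0.08 in KYSE30 (edgeR adjusted p = 1.55e-06), between 0.51 and 0.66 over 13 alternatives, and its value of -0.17 ± 0.10 in the U138MG-labelled libraries was not called. XRCC4, the scaffold that binds LIG4, was at 10.8, 10.8 and 11.1 CPM and 7.88, 7.85 and 8.38 CPM in KYSE30. Its U138MG-labelled values were 7.14, 7.69 and 6.66 CPM and 7.59, 9.30 and 10.0 CPM, which overlapped. XRCC4 fell by 0.44 ± 0.10 in KYSE30 and rose by 0.33 ± 0.12 in the U138MG-labelled libraries, a rise lost in 7 alternatives, 4 of which left out 1 library (the first or the third DMSO or the second or the third treated library), with values between 0.18 and 0.44. NHEJ1, which encodes XLF, was not called in KYSE30 at 0.24 ± 0.12 (edgeR adjusted p = 0.0893) and fell by 0.37 ± 0.08 in the U138MG-labelled libraries. NHEJ1 shares 65.4% of its exonic bases with AC068946.1 on the same strand, which had 113 counts in KYSE30 beside 883 for NHEJ1, and 13 beside 2224 in the U138MG-labelled libraries.

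The lines differed in the size of the change for most of the set. The interaction of line and treatment was called for 46 of the 57 genes, beside 49.9% of 18405 genes tested, and 44 of them had the higher log2 fold change in the U138MG-labelled libraries, beside 25.5% of all genes. The median difference (U138MG-labelled minus KYSE30) was 0.67 on the log2 scale, against -0.03 over all tested genes. By their own calls, 35 genes fell in both lines and 1 rose in both (MUS81). Another 7 fell in KYSE30 and rose in the U138MG-labelled libraries, and none did the reverse. How many of all tested genes had such pairs of calls was not counted. In KYSE30, 32% of all tested genes were lower, and in the U138MG-labelled libraries 33.6% were lower and 33.9% higher. Across the 57 genes the log2 fold changes of the lines correlated with Pearson's r of 0.72 and Spearman's rho of 0.77, given as a description over genes that share libraries.

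**Figure D3:**
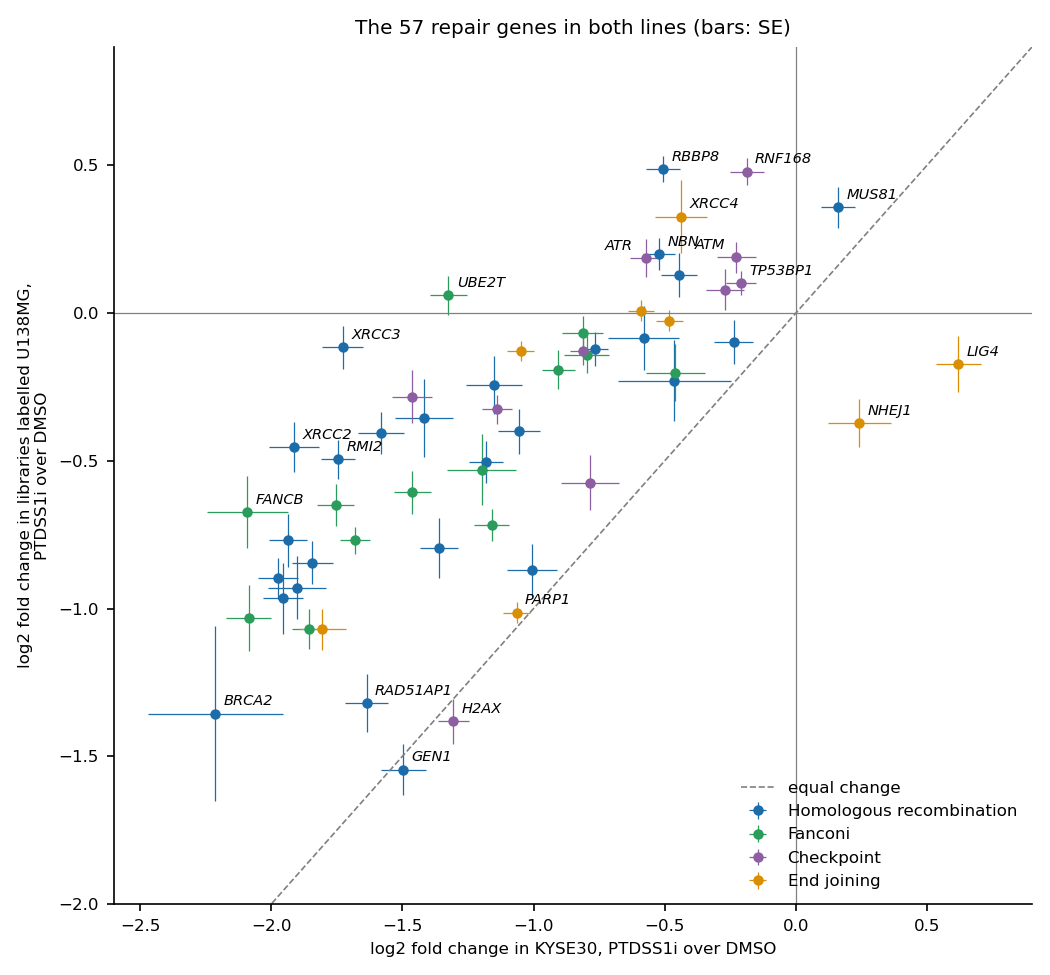
Log2 fold change of each of the 57 genes in KYSE30 (horizontal axis) and in the U138MG-labelled libraries (vertical axis), coloured by role, with SE bars. Points lie above the dashed line of equal change for 53 genes, and LIG4 and NHEJ1 lie clearly below it.

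The 5 largest differences belonged to XRCC3, XRCC2, FANCB, UBE2T and RMI2. XRCC3 differed by 1.57 (95% interval 1.35 to 1.79), XRCC2 by 1.42 (1.16 to 1.68) and FANCB by 1.38 (0.98 to 1.77). The 95% intervals here and below rest on a normal approximation, likely too narrow, and are unadjusted for the number of genes. UBE2T differed by 1.35 (1.15 to 1.55) and RMI2 by 1.21 (1.03 to 1.39). All 5 fell in KYSE30. In the U138MG-labelled libraries XRCC2, FANCB and RMI2 fell less, and XRCC3 and UBE2T were not called. The largest edgeR adjusted p of the 5 differences was 7.37e-07, that of FANCB.

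Opposite directions were called for NBN, RBBP8, ATM, ATR, TP53BP1, RNF168 and XRCC4. Of these rises, only those of RBBP8 and RNF168 kept their call with scaling by library size or by upper quartile. The difference was 0.95 for RBBP8 (0.79 to 1.11), 0.72 for XRCC4 (0.41 to 1.04) and 0.72 for ATR (0.54 to 0.90). It was 0.68 for NBN (0.52 to 0.84), 0.63 for RNF168 (0.47 to 0.79), 0.37 for ATM (0.19 to 0.56) and 0.27 for TP53BP1 (0.13 to 0.41). The edgeR adjusted p ranged from 1.80e-11 for RBBP8 to 0.00148 for TP53BP1. Under upper-quartile scaling the difference of TP53BP1 was not called. The 2 differences called in the other direction, lower in the U138MG-labelled libraries, were those of LIG4 and NHEJ1, at -0.83 (-1.08 to -0.59) and -0.65 (-0.94 to -0.37).

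For 11 genes no difference between the lines was called, and the approximate intervals show roughly how large a difference the data allow. PARP1 had the narrowest, 0.01 with a 95% interval of -0.11 to 0.13. H2AX had -0.11 (-0.30 to 0.08) and GEN1 -0.09 (-0.33 to 0.16). BRCA2 had the widest interval, -0.09 to 1.72 around 0.82, which includes both no difference and the largest difference seen. RAD51AP1 had 0.28 (0.02 to 0.54, edgeR adjusted p = 0.0834). The differences of BRCA2 and RAD51AP1 were both called without the third treated U138MG-labelled library, at 1.08 and 0.35, and RAD50, RMI1, MUS81, SLX4, FANCF and ATRIP lay between 0.10 and 0.22.

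**Figure D4:**
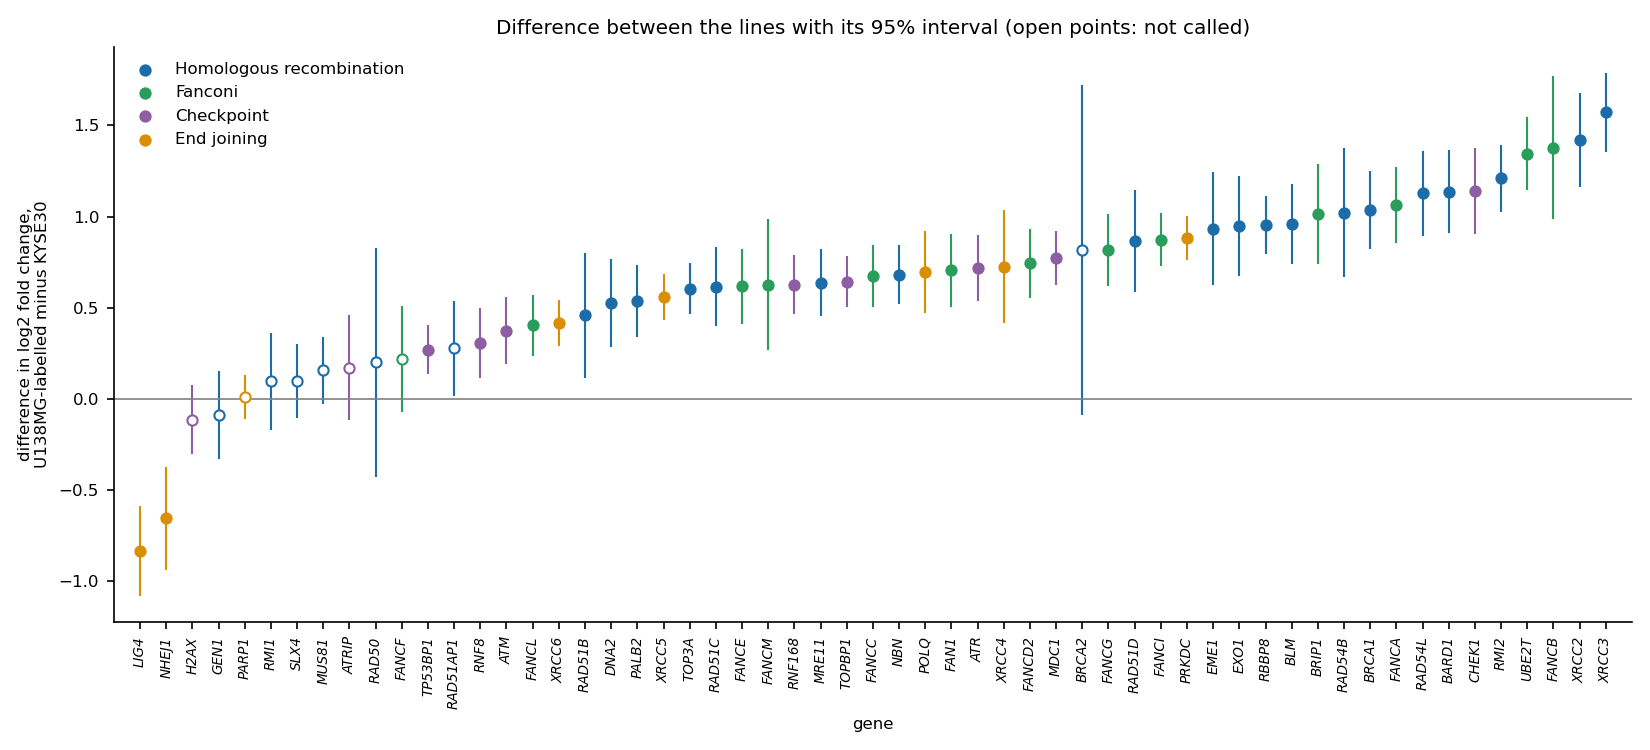
Difference in log2 fold change (U138MG-labelled minus KYSE30, vertical axis) for each of the 57 genes (horizontal axis, sorted), with 95% intervals and colours for role. The 44 called genes above 0 and the 2 below it are filled, and the 11 genes that were not called are open.

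Other gene lists show how far the change was shared. The share of all genes, for these lists and those of the next paragraph, was 32% lower and 30.1% higher in KYSE30. In the U138MG-labelled libraries it was 33.6% lower and 33.9% higher. Of 50 other break and crosslink repair genes, 30 fell and 2 rose in KYSE30 (median -0.39), and 25 fell and 10 rose in the U138MG-labelled libraries (median -0.13). Mismatch repair had 6 of 7 lower in KYSE30 (median -0.63) and 2 of 7 in the U138MG-labelled libraries (median -0.07). Base excision and single-strand break repair had 14 of 19 lower and 2 higher in KYSE30 (median -0.47), and 9 lower and 10 higher in the other line (median 0.09). Nucleotide excision repair had 6 lower and 4 higher of 18 in KYSE30 (median -0.05), the nearest of these repair lists to the share of all genes there. In the U138MG-labelled libraries it had 8 lower and 5 higher of 19 (median -0.07).

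Genes of the cell cycle fell beside the repair genes. All 25 S phase genes fell in KYSE30 (median -1.75), among them MCM2, part of the replicative helicase, at -2.01 and PCNA, the polymerase clamp, at -1.64. With the U138MG label 20 of the 25 fell and 3 rose (median -0.56), with MCM2 at -0.44 and PCNA at -0.43. Of 20 G2/M genes, 19 fell in KYSE30 (median -1.55) and all 20 in the U138MG-labelled libraries (median -1.68), where the mitotic kinase CDK1 was at -1.26. Of 20 p53 target genes, 11 rose and 7 fell in KYSE30 (median 0.30) and 12 rose and 8 fell in the U138MG-labelled libraries (median 0.46). CDKN1A, the cell cycle inhibitor p21, rose by 1.59 and 0.94, and MDM2 by 0.44 and 0.84. The part of the cell cycle in the repair gene values was not tested.

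**Figure D5:**
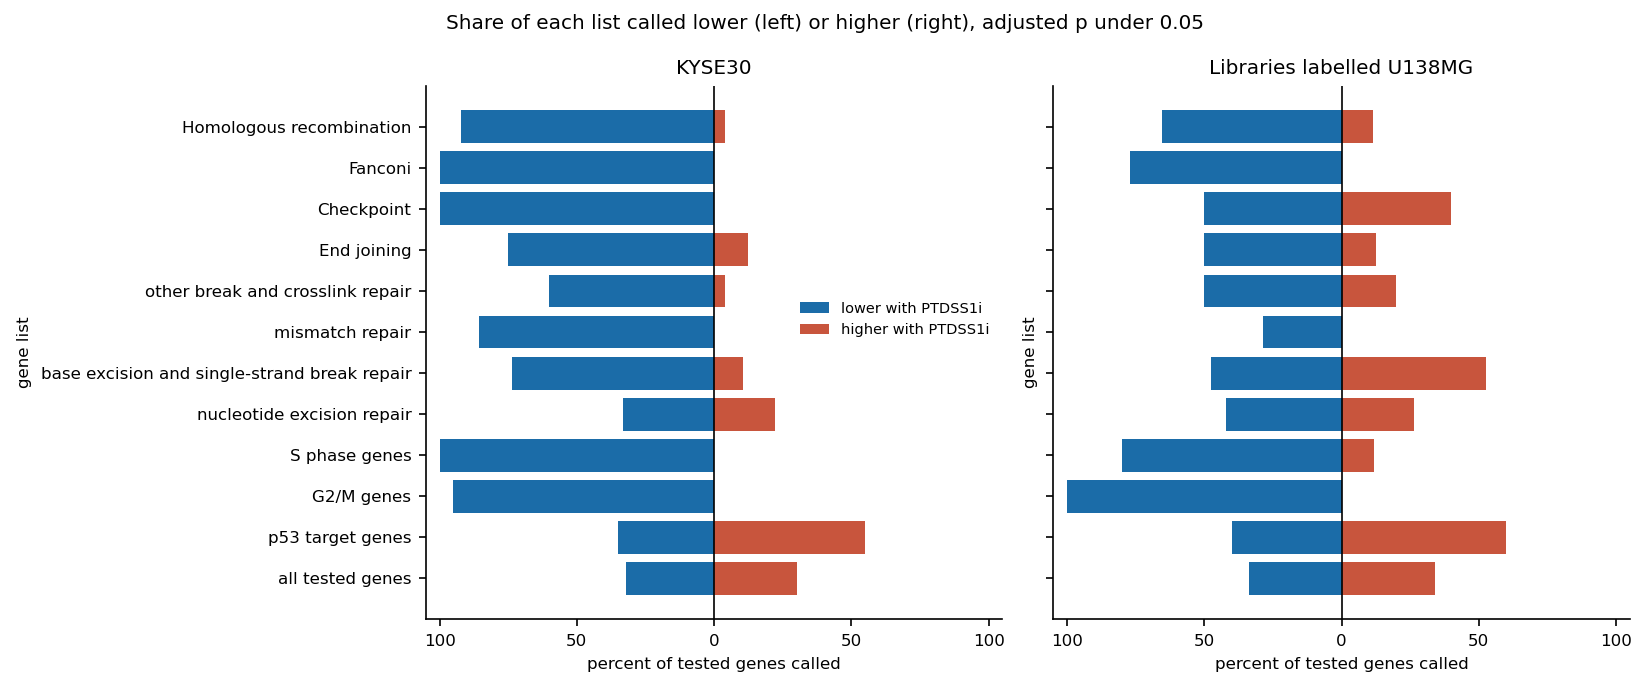
Percent of the tested genes of each list that were called lower (blue, to the left) or higher (red, to the right) with PTDSS1i in KYSE30 and in the U138MG-labelled libraries. All 13 Fanconi genes and all 25 S phase genes are lower in KYSE30, and the last bar gives the share over all tested genes.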

How the data were processed

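The authors deposited raw counts in 1 table per line, with whole numbers for each gene and library, no normalization and no pooling. The submitters' processing notes name Trimmomatic, STAR, featureCounts and the build hg38. Versions, the annotation and any use of strand are not given in the sources used here, and the 2 tables list different numbers of genes. Groups, dose, time and replicate number were read from the labels.

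Genes were kept by edgeR's filterByExpr (minimum count 10, minimum total 15), which left 16389 genes in KYSE30 and 17666 in U138MG, and TMM factors were applied. For each line separately, treated libraries were set against DMSO libraries with edgeR (robust quasi-likelihood fit, p adjusted after Benjamini and Hochberg over all tested genes), and the lines were compared by the interaction of line and treatment over 18405 of the 30358 genes in both tables. CPM values use the TMM factors, except those of the squamous, epithelial, glial and mesenchymal markers, which use the library total alone. The SE is the absolute log2 fold change divided by the square root of the F statistic. R 4.3.3, edgeR 4.0.16, limma 3.58.1, DESeq2 1.42.0, Python 3.11.15, pandas 2.3.3 and matplotlib 3.10.9 were used, and the fits were tested on simulated data. Total counts were 18800932 to 26514658 per library, and the precision also depends on the spread between replicates.

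Deviations from the group means of same-numbered libraries correlated at 0.235, 0.165 and 0.182 in KYSE30, and at -0.0390, 0.105 and 0.114 in U138MG. The labels number the replicates, and whether the numbers pair the libraries is not known. The main fits used no block, and the replicate number as a block was an alternative in both lines. Replicate libraries differed by more than sampling noise (chi-square divided by its degrees of freedom at least 2.29). In GENCODE 29, which may not be the annotation behind the tables, 31 of the 57 genes share exonic bases with another gene, and RAD50, XRCC3, RAD54L, RAD54B, FANCA, FAN1, ATRIP, TP53BP1 and NHEJ1 share at least 20 percent of them, so their values are uncertain. Of gene copies named after the 57, none held more than 37 counts in a line.

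The genes, gene lists and motifs were chosen with earlier results of these data known. Every one of the 57 genes could be named. Values in every library were given for 17 genes listed by role (BRCA1, BRCA2, RAD51AP1, EXO1, FANCD2, FANCI, FANCA, ATM, ATR, CHEK1, H2AX, XRCC5, XRCC6, PRKDC, LIG4, PARP1 and POLQ), for the called gene with the lowest and the highest log2 fold change in each line and role, for the 5 largest differences between the lines, and for genes called in opposite directions. The library values of RAD50 and the overlapping genes KLC1, AC116366.3, ZNF276, CFL1, LRRC59, FSBP, TUBGCP4 and AC068946.1 were added after their values were seen. Alternatives were other scalings, DESeq2, other filters, the replicate number as a block, a joint fit and leaving out each library.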

Additional observations from a re-analysis of the deposited data

Results flagged for a closer look

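The change with PTDSS1i differed between the lines, by the interaction of line and treatment in edgeR, for 46 of the 57 genes. Of all 18405 genes tested, 49.9% differed. The largest differences in log2 fold change, U138MG-labelled minus KYSE30, were 1.57 for XRCC3, 1.42 for XRCC2, 1.38 for FANCB, 1.35 for UBE2T and 1.21 for RMI2. XRCC3 shares 76.7% of its exonic bases with KLC1, which rose in both lines, so its value is uncertain. For 7 genes the difference joined calls of opposite direction, lower in KYSE30 and higher in the U138MG-labelled libraries. It was 0.68 for NBN, 0.95 for RBBP8, 0.37 for ATM, 0.72 for ATR, 0.27 for TP53BP1, 0.63 for RNF168 and 0.72 for XRCC4. How many of all tested genes had such opposite calls was not counted. The rises of NBN, ATM, ATR, TP53BP1 and XRCC4 were lost or reversed with scaling by library size or by upper quartile. The KYSE30 fall of RNF168 was lost in 3 alternatives. RBBP8 alone kept both calls in every alternative. The line, its batch and its count table change together and cannot be told apart. In the U138MG-labelled DMSO libraries, 5 of 6 squamous and epithelial and 5 of 9 glial and mesenchymal markers were above 10 CPM. KRT15 was at 4861 CPM, KRT5 at 1470 CPM, SPARC at 713 CPM and VIM at 0.206 CPM. The squamous and epithelial levels go against the glioblastoma label, and the part of cell identity in these differences was not tested.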

How the results depend on the processing

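The counts of genes that fell kept within 1.5 times of 53 in KYSE30 and 36 in the U138MG-labelled libraries under every alternative other than the added fold threshold, and the count of genes whose change differed between the lines within 1.5 times of 46. Leaving out each library in turn gave 51 to 53 lower and 1 to 3 higher in KYSE30, 32 to 37 lower and 5 to 8 higher in the U138MG-labelled libraries, and 45 to 48 genes that differed. The second KYSE30 rise was lost, leaving 1, with no scaling beyond library size, upper-quartile scaling, DESeq2 and no filter on low counts, and without the third DMSO or the first or second treated library. The 8 genes higher in the U138MG-labelled libraries became 3 with no scaling beyond library size and with upper-quartile scaling, and 5 without the first DMSO library. An absolute log2 fold change over 1 as well left 33 lower and 0 higher in KYSE30, beside 7.04% and 6.4% of all genes. In the U138MG-labelled libraries it left 8 lower and 0 higher, beside 11.6% and 8.19% of all genes. The difference between the lines exceeded it for 12 genes, and the share of all genes that did was not counted.

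With the replicate block, 54 genes fell and 2 rose in KYSE30, 35 fell and 8 rose in the U138MG-labelled libraries, and 46 differed between the lines. Besides the RAD50 call in KYSE30, the block changed no call there. In the U138MG-labelled libraries, where the correlations of same-numbered libraries were lower, it removed the calls of BRCA2 and FANCE and added that of RAD50.

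Some values that were not called, or lay near 0, changed sign. With no scaling beyond library size, the U138MG-labelled values were -0.018 for PALB2, -0.088 for UBE2T, -0.046 for TP53BP1, -0.068 for RNF8 and -0.139 for XRCC5, and upper-quartile scaling gave -0.016 for PALB2, -0.086 for UBE2T, -0.044 for TP53BP1, -0.066 for RNF8 and -0.137 for XRCC5. These scalings moved the median of all genes there by -0.147 and -0.146. XRCC5 was also -0.015 with at least 10 counts in every library and ranged from -0.033 to 0.035 over fits without 1 library. XRCC6 was 0.0047 with no filter and ranged from -0.048 to 0.0076 without 1 library. Among differences between the lines, upper-quartile scaling gave -0.014 for RMI1, -0.011 for SLX4 and -0.099 for PARP1, and PARP1 was -0.024 with at least 10 counts in every library. Without 1 library, the differences ranged from -0.040 to 0.033 for PARP1, from -0.030 to 0.197 for RMI1, from -0.199 to 0.0049 for GEN1 and from -0.014 to 0.491 for RAD50.

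Single libraries also added calls. Without the second U138MG-labelled DMSO library, XRCC3 (-0.21), FANCF (-0.26) and TOP3A (-0.16) were called lower. RAD50 was called at -0.35 without the first and PALB2 at 0.20 without the second treated U138MG-labelled library, and NHEJ1 at 0.32 without the first KYSE30 DMSO library. The difference of RAD51B, 0.46, was lost without the third DMSO or first treated KYSE30 library (0.44 and 0.33) and without the third DMSO or second treated U138MG-labelled library (0.40 and 0.37). The cause of these changes was not tested. With 3 libraries a group, the called changes below 10 percent were those of FANCE, TOPBP1, TP53BP1 and PRKDC in the U138MG-labelled libraries.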
